A study of Mus musculus with 20 samples.

Results

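Secondary interleukins and colony-stimulating factors, the cytokines that cells can make in a second step after IL-1 signaling, were followed in mouse liver: the interleukins Il6, Il10, Il7, Il15, Il18 and Il33, the IL-18 binding protein Il18bp, the colony-stimulating factors Csf1 and Csf3, and leukemia inhibitory factor, Lif. They were picked by gene symbol, and all 10 members were among the 37681 genes of each count table. The livers came from male mice aged 12 weeks, of the strain labelled C57/BL6 (C57/B6J in the growth protocol and the study's methods), with no transgene or deletion in either group. The treated group of 5 mice received IL-1β at 20 µg/kg (ILB_9577, ILB_9578, ILB_9579, ILB_9582 and ILB_9583), and the 5 untreated mice received saline (UNT_9574, UNT_9575, UNT_9576, UNT_9580 and UNT_9584). RNA was taken 4 hours after treatment, and the RNA of a mouse was made into 1 library for each platform, Illumina and Ion Torrent. The reads of both platforms were aligned with STAR, GSNAP or STAR followed by Bowtie2, which gave 6 tables of 10 libraries with totals of 10568530 to 12008799 reads (Illumina) and 12199528 to 16439683 reads (Ion Torrent). Whether an Illumina count is a read or a read pair is not stated in the tables, and both are called reads here. Illumina data aligned with STAR are given first, and the other 5 tables serve as a check on them. They come from the same 10 mice and are not further replicates.

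IL-1β signals through a receptor that uses the adaptor MyD88 and the transcription factor NF-κB, and many of the genes it turns on encode further cytokines. IL-6 and LIF act through receptors that share the gp130 chain, and in the liver IL-6 drives the acute phase response. IL-18 and IL-33 belong to the IL-1 family: IL-18 is stored as a precursor, cut by an inflammasome caspase and neutralized by IL-18 binding protein, while IL-33 is kept in the nucleus and released from damaged cells. IL-7 and IL-15 act through the common gamma chain and maintain lymphocytes, IL-10 restrains inflammation, and CSF1 and G-CSF (the product of Csf3) sustain macrophages and neutrophils.

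Of the 10 members, 6 had enough reads to be tested (Il33, Il7, Il18bp, Il15, Il18 and Csf1), and Il6, Il10, Csf3 and Lif did not. A gene entered the test with 5 or more reads in any 5 samples of at least 1 table, as 15578 genes did. In the Illumina STAR data 3 members were higher after IL-1β (Il33, Il7 and Il18bp) and 2 were lower (Il15 and Il18) at an adjusted p below 0.05 (edgeR's quasi-likelihood test with Benjamini-Hochberg adjustment over all genes tested). Among all genes tested, 22.7% were called higher and 22.9% lower, so calls of this kind were common in these livers. In the other Illumina tables the shares were 23.7% higher and 23.9% lower with GSNAP and 22.9% and 24.4% with STAR + Bowtie2. On Ion Torrent they were 20.3% and 21.8% with STAR, 22.5% and 23.9% with GSNAP, and 22.8% and 24.0% with STAR + Bowtie2. Il7 reached 5 reads mainly in the treated mice and Il15 mainly in the saline mice. Because these are whole livers, fewer cells of a type and less RNA per cell cannot be told apart.

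The libraries of mouse UNT_9584 stood apart. The deviations of a mouse's Illumina and Ion Torrent libraries from their group means correlated at 0.592 to 0.745 for the other 9 mice and at 0.196 to 0.248 for UNT_9584, over the 3 aligners. Results that rest on it are given with and without it. Of the cell types checked, hepatocyte markers were abundant in every library, as the tissue label says: their summed level was 66350 to 79010 CPM in the treated and 102400 to 118500 in the saline mice, and 5 of 8 were called lower and 1 (Tat) higher.

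Il33 changed most among the members tested. The gene lies on chromosome 19 of the mouse genome (NCBIM37, the mm9 build, chr19:29999604-30035194, plus strand). The treated mice had 86, 176, 146, 138 and 143 reads of Il33, and the saline mice had 24, 20, 23, 15 and 18. The lowest treated mouse was far above the highest saline mouse, and the groups did not overlap in any of the 6 tables. Of all genes tested, 12.1%, 12.5% and 12.8% were higher without overlap in the Illumina STAR, GSNAP and STAR + Bowtie2 tables, and 10.2%, 11.2% and 11.6% in those of Ion Torrent. In CPM (counts scaled to a common library size) after TMM, a normalization for library composition, Il33 was 13.6 ± 3.36 (SD, n = 5) after IL-1β and 1.74 ± 0.271 in saline. Its log2 fold change was 2.96 ± 0.21 (SE), a fold of 7.78 (edgeR, adjusted p = 4.69e-08), and it ranged from 2.96 to 3.17 over the tables. On Ion Torrent with STAR the counts of Il33 were 104, 177, 147, 96 and 107 against 16, 19, 20, 11 and 12. The order of the mice was partly shared, since ILB_9578 was the highest treated mouse and UNT_9580 the lowest saline mouse in all 6 tables.

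The annotation holds more than 1 start for Il33, and the counts are for the whole gene, so they cannot be divided between starts. The RefSeq promoter table places a start at the annotated 5′ end of the gene and another inside the gene. The 250 bases before each are shown because Il33 is the member with the largest change, with capitals marking C/EBP letters (TTNNGNAA on either strand):
Il33, first start, chr19:29999353-29999602, plus strand, NCBIM37: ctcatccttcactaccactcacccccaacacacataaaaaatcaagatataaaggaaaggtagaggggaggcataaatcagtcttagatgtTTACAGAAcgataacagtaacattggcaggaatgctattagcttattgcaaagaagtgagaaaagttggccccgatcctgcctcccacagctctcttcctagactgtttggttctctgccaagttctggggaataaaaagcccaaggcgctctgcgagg
Il33, second start, chr19:30020030-30020279, plus strand, NCBIM37: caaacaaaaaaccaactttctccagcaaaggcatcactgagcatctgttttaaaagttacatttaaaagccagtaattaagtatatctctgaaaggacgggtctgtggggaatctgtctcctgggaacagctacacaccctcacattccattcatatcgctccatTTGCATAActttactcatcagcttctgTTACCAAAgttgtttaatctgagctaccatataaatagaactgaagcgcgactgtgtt
The first window held 1 and the second 2 matches to these letters, which occur in 36.8% of the 32851 promoters of the table. Neither window held the NF-κB letters GGGANNNNCC (17.6% of promoters), the AP-1 letters TGANTCA (6.75%), the CRE letters TGACGTCA (1.55%), the STAT letters TTCNNNGAA (7.02%) or the ISRE letters GAAANNGAAA (2.98%), on either strand. A match is a description of the sequence and not a binding site.

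In adult liver, IL-33 is known from endothelial and stellate cells and, after injury, from hepatocytes. Stellate cell markers were not higher: 0 of 8 were called higher and 2 (Lrat and Reln) lower, with a summed level of 169 to 296 CPM in treated and 265 to 379 in saline mice. Among 8 endothelial markers, 2 were called higher (Cdh5 and Lyve1) and 3 lower, and their sum was 110 to 182 against 154 to 248. The sums of both lists overlapped between the groups and reached lower in the treated mice, while Il33 was higher. Their part in the Il33 result was not tested. Of the IL-33 receptor, the specific chain Il1rl1 (ST2) had 0 or 1 reads in each Illumina STAR library and was below the minimum. The shared chain Il1rap, which also serves the IL-1 receptor, had 998, 953, 1184, 1105 and 1032 reads after IL-1β and 1741, 1960, 1868, 1850 and 2124 in saline, and fell by 0.68 on the log2 scale (edgeR, adjusted p = 6.90e-05).

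**Figure D1:**
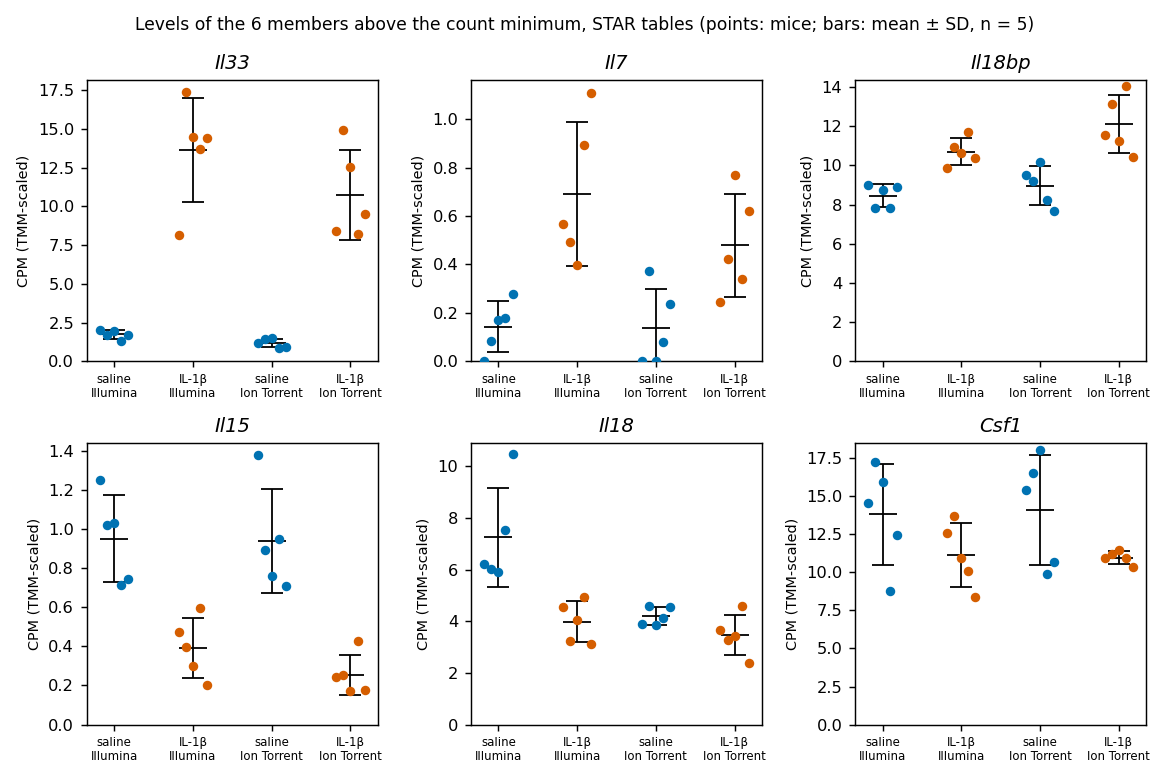
CPM after TMM scaling (vertical axis, from 0) of the 6 members tested, for each mouse in the Illumina and Ion Torrent tables aligned with STAR, with bars for the mean ± SD of 5 mice. Il33 was separated between the groups on both platforms, while Il18 was lower without overlap on Illumina and overlapped on Ion Torrent.

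IL-18 and its binding protein moved in opposite directions in the Illumina data. Il18 (chr9:50383378-50389942, plus strand) had 48, 33, 41, 50 and 31 reads in treated mice and 75, 71, 69, 85 and 113 in saline mice. The groups did not overlap. Of all genes tested, 21.4%, 22.4% and 21.8% were lower without overlap in the Illumina STAR, GSNAP and STAR + Bowtie2 tables, and 21.1%, 22.5% and 22.1% in those of Ion Torrent. The saline mouse UNT_9584 held the highest value. The log2 fold change of Il18 was -0.86 ± 0.20 (SE), a fold of 0.552 (edgeR, adjusted p = 0.00266), and without UNT_9584 it was -0.69 (edgeR, adjusted p = 0.00570). With the other aligners the Illumina fold changes were -0.82 and -0.86, and both were called lower.

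On Ion Torrent Il18 did not pass the test. With STAR the counts of Il18 were 45, 39, 40, 54 and 27 after IL-1β and 54, 62, 51, 52 and 58 in saline, which overlap. The log2 fold changes there were -0.28 with STAR, -0.30 with GSNAP and -0.34 with STAR + Bowtie2 (edgeR, adjusted p = 0.289, 0.174 and 0.144), and without UNT_9584 they were -0.25, -0.26 and -0.29. In the GSNAP table the groups still did not overlap, with treated mice at 33 to 60 reads and saline mice at 63 to 72. The effects of the platforms were compared directly in a fit of all 20 STAR libraries with the mouse as a block. The Ion Torrent log2 fold change of Il18 exceeded the Illumina one by 0.57 ± 0.20 (SE), which did not pass after adjustment over 15578 genes (edgeR, adjusted p = 0.653). Il18 was therefore not shown to respond differently on the platforms. Only 1 gene of all those tested (0.00642%) passed that test, and it was no member.

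The annotated model of Il18 also limits its values. It has 702 exon bases and lacks the first exon of RefSeq, whose start lies 20573 bases upstream of the nearest annotated start, so reads from that exon were not counted for the gene. The 250 bases before the RefSeq start of Il18 held none of the 6 motifs above.

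Il18bp (chr7:109163593-109166669, minus strand) had nearly level raw counts in the Illumina STAR data: 104, 111, 107, 118 and 103 reads in treated mice and 108, 92, 102, 88 and 96 in saline mice. After TMM scaling it was 10.7 ± 0.685 CPM with IL-1β and 8.46 ± 0.588 with saline (SD, n = 5). Its log2 fold change was 0.34 ± 0.12 (SE), a fold of 1.26 (edgeR, adjusted p = 0.0281), and it was called higher in all 6 tables with log2 fold changes of 0.34 to 0.53. The Illumina STAR call depended on the scaling. Without TMM the fold change of Il18bp was 0.21 (edgeR, adjusted p = 0.180), since leaving out TMM moved the median over 11929 genes (those with a mean count of 10 or more) from 0.0046 to -0.12. The shares of all genes called were then 17.6% higher and 27.8% lower. The call was also lost when any 1 of UNT_9575, ILB_9578, UNT_9580 or ILB_9582 was left out (edgeR, adjusted p = 0.0509 to 0.0817).

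The ratio of Il18bp to Il18 reads within a library needs no scaling. As a log2 ratio it was 1.11, 1.74, 1.37, 1.23 and 1.72 in treated mice and 0.523, 0.372, 0.561, 0.0498 and -0.234 in saline mice. No treated mouse overlapped a saline mouse. The mean ratio was 1.43 ± 0.284 after IL-1β and 0.254 ± 0.339 in saline (SD, n = 5), a difference of 1.18 (two-sided exact permutation test, p = 0.00794, the smallest that 5 mice against 5 can give). The groups were also separated in the other 5 tables, by 1.23 and 1.25 on Illumina and by 0.73 to 0.89 on Ion Torrent, each at the same smallest p. Without UNT_9584 the Illumina STAR difference was 1.06. Both genes enter the ratio, so it holds no information beyond their counts.

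**Figure D2:**
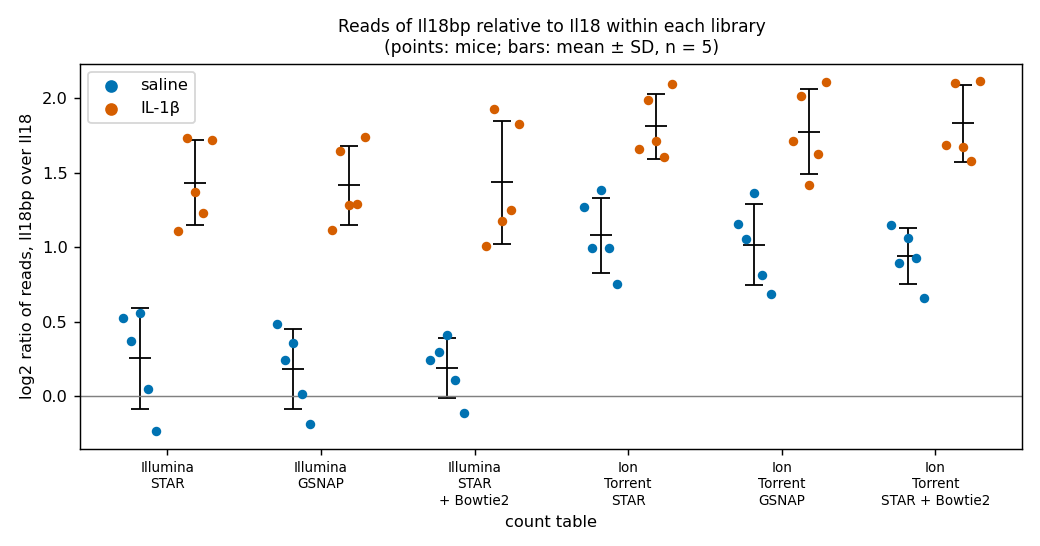
Log2 ratio of Il18bp to Il18 reads (vertical axis) in each library of the 6 tables, with points for mice and bars for the mean ± SD of 5 mice. In every table the lowest treated mouse lies above the highest saline mouse, and the gap is smallest on Ion Torrent (1.42 against 1.36 with GSNAP).

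Both chains of the IL-18 receptor were called higher after IL-1β. Il18r1 had 3, 5, 15, 18 and 4 reads in treated and 1, 5, 3, 2 and 2 in saline mice, a log2 fold change of 1.92 (edgeR, adjusted p = 0.0134) with overlapping groups. In these data Il18r1 did not reach the count minimum, and it was tested because of its reads in other tables. Its counts of 5 or more were mainly in treated mice, and those of 15 and 18 were in ILB_9579 and ILB_9582. Il18rap had 7, 15, 14, 18 and 16 against 7, 6, 6, 2 and 1 reads, a log2 fold change of 1.83 (edgeR, adjusted p = 0.00164), and its groups met at 7 reads. Of 20 genes of IL-18 and IL-33 processing, 15 were tested, 3 were higher, 6 were lower and 6 did not pass (22.7% of all genes tested were higher and 22.9% lower). The list had a median log2 fold change of -0.52 where that of all genes was 0. The higher ones were Gsdmd (1.37), whose product forms the pore through which IL-1 family cytokines leave the cell, the inflammatory caspase Casp4 (1.13) and the pyrin gene Mefv. Casp1, the caspase that cuts pro-IL-18, had 12, 10, 10, 13 and 8 reads in treated and 19, 20, 17, 15 and 15 in saline mice, and did not pass in this table (log2 fold change -0.52, edgeR, adjusted p = 0.0745). Casp1 was called lower with Illumina GSNAP (-0.80, adjusted p = 0.00529) and STAR + Bowtie2 (-0.67, adjusted p = 0.0306) and in no Ion Torrent table, by edgeR. On Ion Torrent with STAR the list had 4 genes higher and 3 lower, with a median of -0.16.

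Kupffer cells, the resident macrophages of the liver, are a known source of IL-18. Of 9 Kupffer cell markers present in the tables, 1 was called higher (Marco) and 2 lower (Clec4f and Vsig4), and their sum was 71.0 to 178 CPM in treated and 123 to 242 in saline mice, with all 9 above the count minimum. Their part in the Il18 result was not tested.

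The members that act through the common gamma chain moved apart. Il7 (chr3:7572036-7613722, minus strand), a growth factor for lymphocyte precursors, had 6, 5, 4, 9 and 11 reads after IL-1β and 0, 1, 2, 2 and 3 in saline. The groups were separated, though by few reads. In the Illumina STAR data Il7 did not reach the count minimum, and it was tested because of its reads in other tables. Those reads were mainly in treated mice, so Il7 entered the test largely through the group where it was high. Il7 had a log2 fold change of 2.21 ± 0.52 (SE), a fold of 4.64 (edgeR, adjusted p = 0.00279), and was called higher in all 6 tables at 1.62 to 2.21. On Ion Torrent with STAR its counts were 3, 5, 9, 4 and 7 against 0, 5, 0, 1 and 3, with overlap, and the groups were separated in 2 of the 6 tables. Of all genes tested, 10.2% to 12.8% were higher without overlap, by table. An antisense long noncoding gene, Gm16685, shares 105 of the exon bases of Il7 (3.06%) on the opposite strand, and the sources used here do not say whether counting used the strand.

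Il15 (chr8:84855536-84927121, minus strand) sustains natural killer and memory T cells. It had 5, 4, 3, 6 and 2 reads after IL-1β and 15, 12, 12, 8 and 8 in saline. The highest treated mouse was below the lowest saline mouse, and this held in all 6 tables. Of all genes tested, 21.1% to 22.5% were lower without overlap, by table. Il15 reached 5 reads mainly in the saline mice, so it entered the test largely through the group where it was high. Il15 had a log2 fold change of -1.25 ± 0.34 (SE), a fold of 0.419 (edgeR, adjusted p = 0.00640), and -1.25 to -1.84 over the tables, where it was called lower each time. On Ion Torrent with STAR the counts of Il15 were 3, 3, 2, 5 and 2 against 19, 12, 10, 12 and 9. The platform term of Il15 was -0.57 ± 0.55 (SE) and did not pass (edgeR, adjusted p = 0.854).

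Of the receptor chains of these cytokines, 1 passed the test. Il2rg, the common gamma chain itself, had 32, 29, 22, 31 and 28 reads after IL-1β and 21, 19, 10, 14 and 8 in saline, a log2 fold change of 1.16 (edgeR, adjusted p = 0.00132). Il7r, Il2rb and Il15ra did not pass, at 0.68, 0.07 and -0.40 (edgeR, adjusted p = 0.342, 0.887 and 0.194). Of 10 lymphocyte markers 6 were tested, 0 were higher and 2 lower (Cd4 and Cd79a), and the whole list summed to 1.32 to 3.12 CPM in treated and 3.55 to 6.15 in saline mice. Their part in the Il15 and Il2rg results was not tested.

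Csf1 (chr3:107543966-107563387, minus strand), the growth factor of macrophages, had 133, 139, 110, 102 and 83 reads after IL-1β and 175, 203, 186, 99 and 134 in saline. The groups overlapped, with UNT_9580 and UNT_9584 below the highest treated mouse, and UNT_9580 was the lowest saline mouse in all 6 tables. The log2 fold change of Csf1 was -0.31 ± 0.18 (SE) and did not pass (edgeR, adjusted p = 0.184), and in the other tables it was -0.32 to -0.42 (adjusted p = 0.0597 to 0.137). Without UNT_9580 the Illumina STAR value was -0.44, and it passed (edgeR, adjusted p = 0.0360). Its receptor Csf1r, a macrophage gene, had 314, 248, 126, 165 and 152 reads in treated and 527, 344, 319, 303 and 260 in saline mice, and fell by 0.62 on the log2 scale (edgeR, adjusted p = 0.0304), beside the Kupffer cell markers above. Of 6 monocyte markers tested, 4 were called higher and 0 lower, with a sum of 2070 to 2551 CPM in treated and 1216 to 1595 in saline mice. The part of either cell type in the Csf1r result was not tested. Il34, which encodes the other ligand of that receptor, was at 0.73 in the Illumina STAR data (edgeR, adjusted p = 0.0277). Il34 was called higher in the 3 Illumina tables and with Ion Torrent STAR + Bowtie2, and missed the threshold with Ion Torrent GSNAP (0.64, adjusted p = 0.0513) and STAR (0.65, adjusted p = 0.0845), by edgeR.

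**Figure D3:**
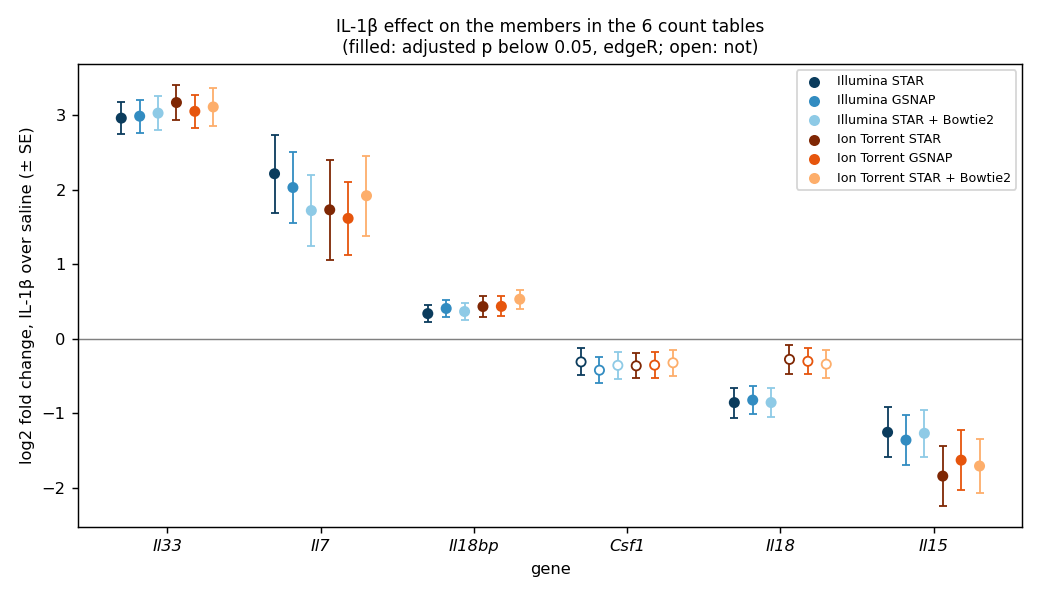
Log2 fold change of IL-1β over saline ± SE (vertical axis) of the 6 members tested, in each of the 6 tables, with filled points for an adjusted p below 0.05 (edgeR). Il33, Il7, Il18bp and Il15 were called in every table, Il18 in the 3 Illumina tables and Csf1 in none.

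Il6, Lif, Csf3 and Il10 were at or near the limit of detection in whole liver at 4 hours. Il6 (chr5:30339701-30346508, plus strand) had 0, 3, 2, 1 and 2 reads in the treated Illumina STAR libraries and 0 in each of the 5 saline libraries. That is 8 reads against 0. A count of 0 over the group allows up to 3 reads, and 8 reads are 2.76-fold above that after scaling for library totals. The counting error of the 8 reads is left out of this value, so it is not a lower limit. For the CPM of Il6 a two-sided exact permutation test gave p = 0.0476, with no adjustment for the 4 such tests in each table. With GSNAP 8 reads stood against 1 (p = 0.00794 by the same exact test) and with STAR + Bowtie2 9 against 1 (p = 0.0476, exact). The GSNAP p rests on a tie at 1 read between treated mice and UNT_9574, which only the lower totals of the treated libraries parted. On Ion Torrent with STAR 4 reads stood against 1, a ratio of 4.12 with a 95% counting interval of 0.408 to 203 (exact permutation p = 0.444), so no difference was detectable there. Such intervals cover counting error only.

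Lif (chr11:4157560-4172517, plus strand) had 5, 3, 4, 3 and 3 reads after IL-1β and 3, 1, 1, 1 and 1 in saline. The groups met at 3 reads. The sums were 18 and 7 reads, a ratio of 2.66 with a 95% counting interval of 1.06 to 7.54, and its CPM gave p = 0.00794 in the exact permutation test, again with no adjustment. This p rests on the tie at 3 reads with UNT_9574, which only the library totals parted. They were 10568530 to 10655860 in treated and 10887640 to 11046256 in saline libraries, so equal counts gave a higher CPM in treated mice. With STAR + Bowtie2 the Illumina sums of Lif were 12 and 7 (exact permutation p = 0.206). On Ion Torrent with STAR they were 15 and 4, a ratio of 3.86 (95% counting interval 1.23 to 16, exact permutation p = 0.0952), with 1, 7, 4, 0 and 3 reads in the treated mice. The sum was higher after IL-1β in all 6 tables.

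Csf3 (chr11:98562577-98564943, plus strand) and Il10 (chr1:132916422-132921551, plus strand) gave almost no reads. Csf3 had 2 reads in ILB_9578 and 0 in the other 9 Illumina STAR libraries, and 2 reads in ILB_9579 and 0 elsewhere on Ion Torrent with STAR. With Ion Torrent GSNAP Csf3 had 2 reads each in ILB_9577 and ILB_9579 and 1 in ILB_9582, 5 against 0. Il10 had 1 read each in UNT_9574 and UNT_9580 and 0 elsewhere on Illumina with STAR, and on Ion Torrent with STAR 2 reads in ILB_9579 and 1 each in ILB_9582 and UNT_9584. For both genes an exact permutation test gave p = 0.167 or higher in all 6 tables. With reads in so few mice it could not have given a small p, so it does not decide whether either gene differed.

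**Figure D4:**
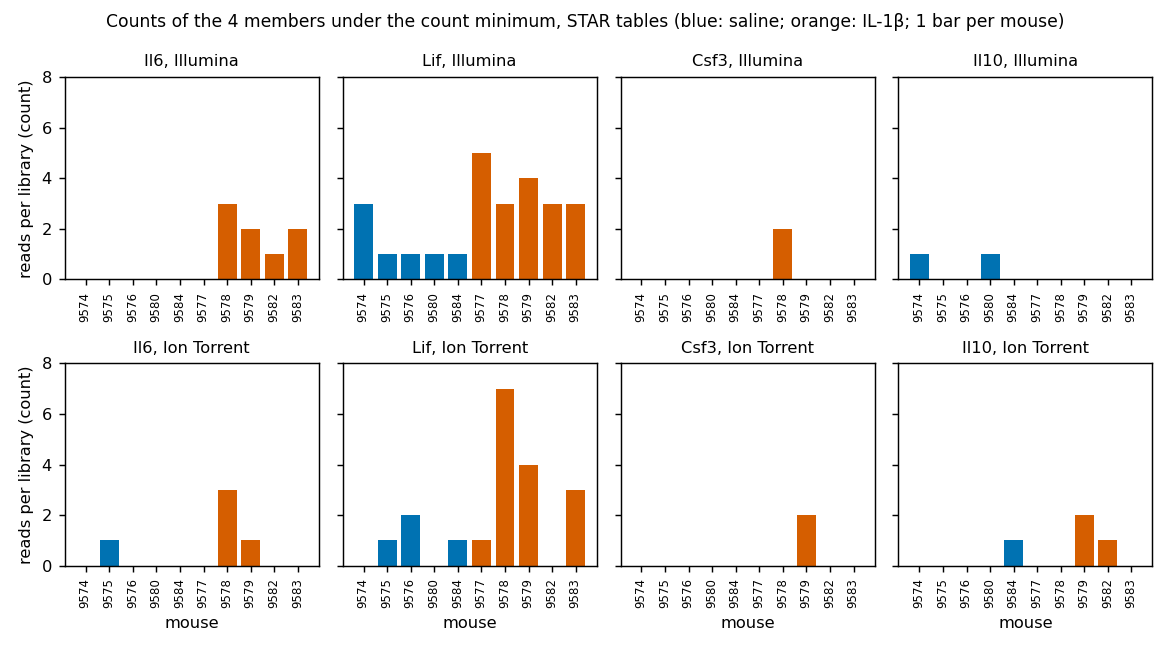
Read counts (vertical axis) of Il6, Lif, Csf3 and Il10 in each mouse (horizontal axis) in the STAR tables, with saline mice in blue and treated mice in orange. The highest bar is 7 reads (Lif, Ion Torrent), and the saline mice hold no Il6 read on Illumina.

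The promoter of Il6 is shown as a contrast to those of Il33, with NF-κB, AP-1 and C/EBP letters in capitals:
Il6, chr5:30339404-30339653, plus strand, NCBIM37: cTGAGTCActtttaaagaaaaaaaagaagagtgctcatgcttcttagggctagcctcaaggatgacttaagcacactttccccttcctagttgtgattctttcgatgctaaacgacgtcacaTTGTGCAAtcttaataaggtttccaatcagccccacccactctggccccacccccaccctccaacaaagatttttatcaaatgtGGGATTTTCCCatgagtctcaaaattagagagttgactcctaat
The NF-κB letters began 44 bases, the C/EBP letters 128 bases and the AP-1 letters 249 bases before the RefSeq start. The NF-κB letters matched on both strands, 1 base apart, which makes a run of 11 capitals. Of the members, 6 had entries in the promoter table. NF-κB letters were also found before Csf1 and Lif, AP-1 letters before Lif, and C/EBP letters before Il18bp. None of these matches was tested against the fold changes.

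The 3′UTRs of 3 of the 4 scarce members were rich in ATTTA, the core of AU-rich elements, which mark short-lived cytokine mRNAs. ATTTA occurred 11.9 times per kb in Il6 (5 copies in 420 bases), 8.97 in Csf3 and 8.50 in Il10, at or above percentile 98.6 of the 18458 genes with a 3′UTR of at least 100 bases, whose median was 1.16 per kb. Lif, the other scarce member, had 2.2 per kb, less than Il15 and Il18, with 5 copies of TATTTAT, which 25.7% of genes hold at least once. The values of Il33 (1.80), Il18bp (1.5) and Il7 (1.11) were nearer the median, and Il15 had 3.61. Il18 had 8.13 per kb, from a single copy in 123 bases. In Il10 no 30 bases held more than 1 copy. The 30 bases holding the most copies are shown for the remaining 3 scarce members and Il33, with ATTTA in capitals:
Csf3: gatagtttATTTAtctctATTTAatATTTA
Il6: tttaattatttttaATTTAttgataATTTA
Lif: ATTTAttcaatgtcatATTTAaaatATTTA
Il33: atttttctcttttaacacATTTAacATTTA
These are sequence descriptions of 10 genes, and no stability was measured. Of 15 genes known to control cytokine mRNAs after transcription, 8 were called higher and 1 lower in the Illumina STAR data (22.7% and 22.9% of all genes tested). Their median log2 fold change was 0.52. Among the higher ones were Zc3h12a (2.76), which encodes the nuclease Regnase-1 that cuts Il6 mRNA, Zfp36 (1.22), which encodes the ATTTA-binding protein tristetraprolin, and Arid5a (3.17), whose product stabilizes Il6 mRNA. The gene lower was Zc3h12d (-1.86), a relative of Zc3h12a.

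Whereas the ligand transcripts were scarce, the receptors of IL-6, LIF and G-CSF were well measured. Il6ra, the IL-6 receptor chain, had 836, 765, 737, 975 and 1047 reads after IL-1β and 765, 628, 474, 443 and 405 in saline, a log2 fold change of 0.87 (edgeR, adjusted p = 0.000294). Il6st, which encodes gp130, had 2575, 3421, 2922, 3168 and 2442 against 2168, 1795, 1704, 1647 and 1697 reads, also 0.87 (edgeR, adjusted p = 1.47e-05), and its groups did not overlap. Lifr, the LIF receptor chain that pairs with gp130, had 1582, 1263, 2082, 1712 and 1978 reads in treated and 6227, 5662, 3914, 6187 and 5284 in saline mice. It fell by 1.48 on the log2 scale (edgeR, adjusted p = 2.21e-06), so the chains of the LIF receptor moved in opposite directions.

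Csf3r, the G-CSF receptor, had 97, 121, 75, 104 and 102 reads after IL-1β and 39, 21, 27, 15 and 15 in saline, a log2 fold change of 2.27 (edgeR, adjusted p = 1.49e-06). It is a neutrophil gene, and 7 of 9 neutrophil markers were tested and all 7 were higher, with a summed level of 44.2 to 106.5 CPM in treated and 1.0 to 4.04 in saline mice. At that saline level these 7 could reach the count minimum mainly through the treated mice, so calls in this direction were favoured. The other two, Ly6g and Camp, had 0 reads in every saline mouse and at most 3 in a treated mouse on Illumina. Their part in the Csf3r result was not tested. Il10ra, carried by macrophages and other leukocytes, was at -0.77 in the Illumina STAR data (edgeR, adjusted p = 0.00953). Il10ra was called lower in 4 of the 6 tables and missed the threshold with Illumina STAR + Bowtie2 (-0.57, adjusted p = 0.0637) and Ion Torrent STAR (-0.60, adjusted p = 0.0577), by edgeR. Il10rb was at 0.04 in the Illumina STAR data (edgeR, adjusted p = 0.909).

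Of 15 receptor genes of the members, 14 were tested, 6 were higher, 4 lower and 4 did not pass, with a median log2 fold change of 0.37 where that of all genes was 0. Of 23 genes of signaling below these receptors, all were tested, 10 were higher and 3 lower, with a median of 0.53. The largest increases were those of Irak3 (4.52), an inhibitor of IL-1 family receptor signaling, Socs3 (2.30), the feedback inhibitor of gp130 signaling, Bcl3 (2.18), an IκB family member, and Stat3 (1.81), the transcription factor below gp130. The genes lower were Pias3 (-0.86), whose product inhibits STAT3, Irak2 (-0.64), a kinase family member below MyD88, and Stat5b, which transmits signals of the common gamma chain. Stat3 had 4975, 5127, 6194, 6018 and 5313 reads after IL-1β and 2441, 1476, 1944, 1632 and 1481 in saline. In the same libraries Il6 itself gave at most 3 reads.

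**Figure D5:**
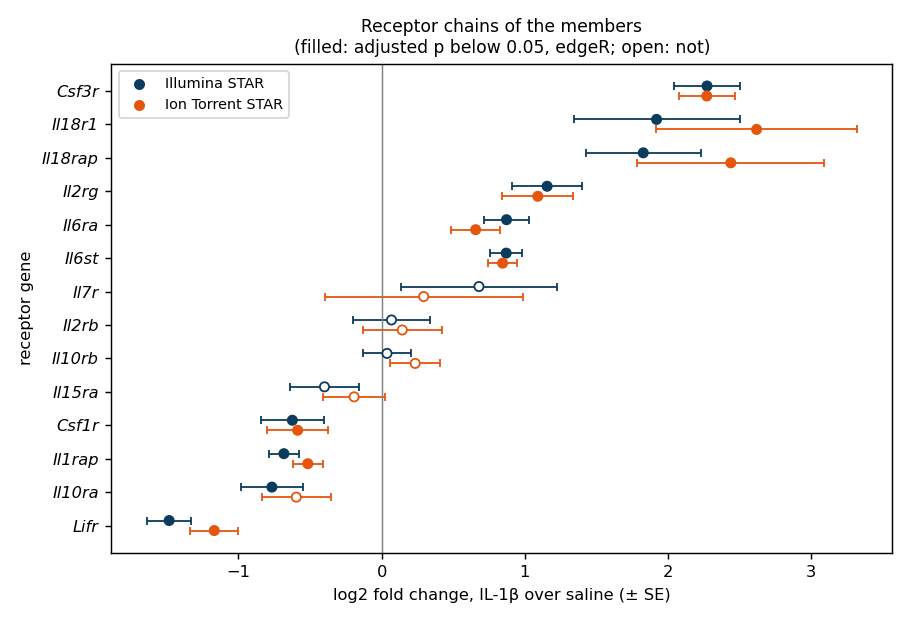
Log2 fold change of IL-1β over saline ± SE (horizontal axis) of the 14 receptor genes tested (vertical axis) in the Illumina and Ion Torrent STAR tables, with filled points for an adjusted p below 0.05 (edgeR). Csf3r, both IL-18 receptor chains, Il2rg, Il6ra and Il6st lie to the right on both platforms, and Lifr is farthest to the left.

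Levels of the members were ranked per length, as CPM per kilobase of exon, in the Illumina STAR data. In saline livers Il18 was highest at 10.7 ± 2.35 (SD, n = 5), followed by Il18bp at 6.32 ± 0.536, Csf1 at 2.76 ± 0.730, Il33 at 0.634 ± 0.118, Il15 at 0.525 and Il7 at 0.0424. Il33 and Il15 overlapped in that order, and the other neighbours did not. After IL-1β the order was Il18bp at 7.31 ± 0.434, Il18 at 5.45 ± 1.15, Il33 at 4.52 ± 1.08, Csf1 at 2.03 ± 0.412, Il15 at 0.198 and Il7 at 0.192. There Il18 and Il33 overlapped, as did Il15 and Il7. The binding protein and its ligand exchanged places with all 3 aligners on Illumina. On Ion Torrent Il18bp already ranked above Il18 in saline with GSNAP (6.65 ± 1.04 against 6.48 ± 0.384) and STAR (6.68 ± 0.907 against 6.25 ± 0.533), and below it with STAR + Bowtie2 (6.25 ± 0.652 against 6.47 ± 0.442). Il33 ranked below Csf1 in saline and above it after IL-1β in all 6 tables. The level of Il18 per length was computed over the 702 exon bases of its annotated model and depends on that length. The means of the 4 scarce members lay below these in the treated mice, with Il6 at 0.139, Lif at 0.0779, Csf3 at 0.0268 and Il10 at 0.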

How the data were processed

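Liver RNA of 10 mice was sequenced on 2 platforms. The p-values of the treatment tests weigh an effect against the spread between mice. Those of the platform term, with the mouse as a block, weigh it against the spread left within mice. The values deposited by the authors are whole-number count values per gene. The authors aligned the reads to mm9 with GSNAP, STAR (2.5.1b) or STAR followed by Bowtie2 (2.2.9), and with PORT removed rRNA and mitochondrial reads, assigned reads to Ensembl genes and drew from every library of a table as many gene-mapping reads as its smallest library had. Each table was normalized on its own, so no treatment test joins tables. Re-sampling leaves few reads for scarce cytokines. All 60 columns were used.

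Members and gene lists were chosen with earlier results of these data known. All members are named, with every receptor called and, of the other lists, up to 4 genes higher and 2 lower by size. The result of 1 list gene is not reported here. A few further list genes (Casp1, Mefv, Stat5b, Cd79a, other markers and receptors that did not pass) were named after their values were seen. The 15578 genes tested were fitted with edgeR 4.0.16 (TMM, quasi-likelihood test, Benjamini-Hochberg adjustment, threshold 0.05). The platform term used the 20 STAR libraries with the mouse as a block, since both libraries of a mouse come from the same animal, and their deviations correlated at 0.592 to 0.745 in 9 mice and 0.196 to 0.248 in UNT_9584. Ratios (pseudocount 0.5) and scarce members were compared with exact permutation tests. Alternatives were DESeq2 1.42.0, limma-voom 3.58.1, an exact Mann-Whitney test, other scalings and filters, the other tables and leaving out each mouse. The fits of the other tables without UNT_9584 and the tests of scarce members were added after seeing the data. On simulated data for the treatment comparison, with 200 of 15000 genes changed by 1.5 (log2), edgeR recovered 197 with 9 false calls. For the platform term it recovered 196 of 200 with 19 (15051 genes). In the treatment simulation limma-voom recovered 197 with 8 false calls, DESeq2 196 with 26, and the exact Mann-Whitney test 0 with 0. The changed genes were drawn from those with a mean count of 20 or more. Recovery was therefore not checked for genes with as few reads as Il7 and Il15, nor for smaller changes. R 4.3.3, Python 3.11.15, scipy 1.17.1 and pandas 2.3.3 were used.

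Positions, exons and 3′UTRs are those of the Ensembl models on NCBIM37, and promoters those of RefSeq, matched exactly to NCBIM37. Il10, Il7, Il15 and Csf3 are not in the promoter table.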

Additional observations from a re-analysis of the deposited data

Results flagged for a closer look

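Of 72 groups of 5 mice checked for a sample far from the others (Dixon's ratio of the gap to the range), 4 stood out. That is near the 1 in 20 that chance alone gives. The groups are the same 10 mice seen in 6 tables and are not independent. Il18 was high in UNT_9584 among the saline mice with Illumina GSNAP (gap over range 0.833, 10.2 CPM) and with Ion Torrent STAR + Bowtie2 (0.729, 5.04 CPM). Il15 was low in UNT_9580 among the saline mice with Illumina GSNAP (0.78, 0.586 CPM) and high in ILB_9578 among the treated mice with Ion Torrent GSNAP (0.719, 0.633 CPM).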

How the results depend on the processing

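In the Illumina STAR data 3541 genes were called higher and 3575 lower. An exact Mann-Whitney test, run on the counts without TMM, called 2183 higher and 3910 lower. A required absolute log2 fold change above 1 left 1250 higher and 1384 lower. Leaving out each mouse gave 3246 to 3526 higher and 3253 to 3494 lower. Of the members, 3 were higher in the main test, 5 with no filter on low counts (Il6 and Lif added) and 2 to 3 without each mouse. The count was 2 with the Mann-Whitney test, without TMM and with a log2 fold change above 1. It was also 2 with a mean count of at least 10 (Il7 was not tested) and on Ion Torrent with STAR without UNT_9584. The 2 members lower became 1 in each Ion Torrent table, 1 in the Ion Torrent GSNAP and STAR + Bowtie2 tables without UNT_9584, 1 with a mean count of at least 10 (Il15 was not tested), 1 with a log2 fold change above 1, and 2 to 3 without each mouse. Il33, Il7 and Il15 kept direction and call in every alternative in which they were tested. Il18bp lost its call with the Mann-Whitney test (adjusted p = 0.111) and, on Ion Torrent with STAR, without UNT_9584 (edgeR, adjusted p = 0.0555). Csf1 gained one there (edgeR, adjusted p = 0.0418). The cause of these changes was not tested. The Il18bp to Il18 difference was 1.06 to 1.26 without each mouse. The platform term called 1 gene with the mouse as replicate block, 0 without the block, 10 with GSNAP, 12 with STAR + Bowtie2, 3 with DESeq2 and 0 with limma-voom, and 1 to 10 without each mouse (10 without UNT_9584, 2 without UNT_9574). At unadjusted p under 0.05 edgeR gave 1090 genes with the block and 244 without, and limma-voom 1272. At that level 1 member, Il18, passed in the main fit with the block. No member was called after adjustment in any of these, and the block changed no other call. Treatments share no mouse, so their comparison has no pairing. Depth limits Il6, Il10, Csf3 and Lif.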

Other observations

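Among 37 other interleukins, gp130 cytokines and colony-stimulating factors, 12 had enough reads to be tested. In the Illumina STAR data 2 were higher and 3 lower (22.7% and 22.9% of all genes tested), with a median log2 fold change of -0.04. Of these 12, Il2 had 0 reads in this table and was tested because of its reads in others. Ctf1, which encodes the gp130 cytokine cardiotrophin-1, had 20, 7, 8, 18 and 12 reads after IL-1β and 39, 29, 33, 38 and 27 in saline, a log2 fold change of -1.17 (edgeR, adjusted p = 0.00218), and was called lower in all 6 tables. Il1rn, which encodes the IL-1 receptor antagonist, had 1013, 1146, 1975, 1710 and 918 reads after IL-1β and 13, 21, 9, 56 and 25 in saline, a log2 fold change of 5.94 (edgeR, adjusted p = 1.44e-08). The ligand genes Il1a and Il1b did not pass, at -0.73 and 0.63 (edgeR, adjusted p = 0.159 and 0.0936) in the Illumina STAR data, but Il1b was called higher with Illumina GSNAP (0.82, adjusted p = 0.0176) and STAR + Bowtie2 (0.74, adjusted p = 0.0299), by edgeR. Il1a and Il1b fall outside the rule for named genes and were chosen after their values were seen. Csf2, which encodes GM-CSF, and 16 further genes of the list, among them Il2, Il12b, Il17a and Il22, had 0 reads in all 10 libraries, which allows up to 3 reads over a group.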
